A study of Mus musculus with 16 samples.

Results

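The complement cascade is described here as 33 genes chosen by name. They comprise 7 genes of the classical pathway, 6 of the lectin pathway, 4 of C3 and the alternative pathway, 7 of the terminal pathway, 7 regulators and 2 anaphylatoxin receptors. All 33 were found among the 17410 genes of the deposited tables. The study measured RNA from 16 mouse livers in 4 groups of 4. LKO_NASH livers came from Chrebpα-flox/flox mice given AAV-TBG-Cre, a virus in which the hepatocyte promoter TBG drives Cre recombinase. WT_NASH livers came from the same Chrebpα-flox/flox mice given AAV-TBG-GFP, so both groups carried the floxed alleles and a virus. Both were fed a NASH diet (40 kcal% fat, 20 kcal% fructose, 2% cholesterol) for 12 weeks. Ad_Chrebpa_HFLMCD livers came from wildtype mice of 2 months given an adenovirus that overexpressed Chrebpα. Ad_GFP_HFLMCD livers came from mice also described as wildtype and of 2 months, given an adenovirus with GFP. Both of these groups were fed the choline-free HFLMCD diet (45 kcal% fat, 0.1% added methionine) for 3 weeks in all and were dissected 1 week after the injection. The sources used here do not give the sex and strain of the mice or the age of the floxed mice. ChREBPα is the glucose-responsive transcription factor encoded by Mlxipl. The deletion and the overexpression experiment share no sample. Virus, diet, its duration, genotype and possibly age, sex and strain differ between them. Levels compared across them therefore cannot be told apart from those differences.

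Complement is a set of plasma proteins, most of them made by hepatocytes, that tag and lyse microbes and damaged cells. The classical pathway starts when C1q binds antibody or an altered surface, and the lectin pathway when mannose-binding lectins, ficolins or collectins bind sugars. Both cleave C4 and C2 into a convertase that activates C3. Factor B, factor D and properdin form the amplifying convertase of the alternative pathway. C5, encoded in the mouse by Hc, then assembles with C6, C7, C8 and C9 into the membrane attack complex. C1q differs from most of the cascade in that tissue macrophages, in the liver the Kupffer cells, make its chains. Several hepatic complement genes are known acute-phase genes, which respond to IL-6 and IL-1.

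The 16 libraries held 21254900 to 40327300 expected counts. Levels are given as the authors' FPKM (fragments scaled by transcript length and library size), with values listed in the order of the liver numbers, 21 to 24 for LKO_NASH, 17 to 20 for WT_NASH, 13 to 16 for Ad_Chrebpa_HFLMCD and 9 to 12 for Ad_GFP_HFLMCD. Fold changes are log2 values from edgeR's quasi-likelihood test on the counts, and "called" means a Benjamini-Hochberg adjusted p below 0.05 over all genes tested. The edgeR fit rescales libraries by their bulk of genes and FPKM does not. The median gene therefore stood at 0.01 on the log2 scale in the deletion fit but at 0.10 on log2(FPKM + 1) and 0.15 on log2(FPKM + 0.1), and members with equal FPKM in both groups can have a slightly negative fold change. In the overexpression fit, 676 of all genes were called higher and 434 lower on counts, against 438 higher and 997 lower on log2(FPKM + 1). Mlxipl itself averaged 76.4 ± 22.3 FPKM in LKO_NASH livers and 66.1 ± 15.1 FPKM in WT_NASH livers (SD, n = 4), with a log2 fold change of 0.05 and an edgeR adjusted p of 0.916. It averaged 46.1 ± 1.41 FPKM in Ad_Chrebpa_HFLMCD livers and 43.7 ± 4.61 FPKM in Ad_GFP_HFLMCD livers, with a log2 fold change of 0.15 and an edgeR adjusted p of 0.241. The entry pools all isoforms of the gene and was called in neither experiment. These values therefore show neither a loss nor a gain of the α form, and cannot separate it from the other isoforms. Deletion and overexpression below refer to the design, not to a measured change in Chrebpα. Liver 21 of LKO_NASH stood apart from its group, and the deletion fit called 0 of 12786 genes with it but 420 of 12975 without it. In liver 10 of Ad_GFP_HFLMCD, 15 of 18 macrophage markers were at their highest of the group.

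The members together made up 1.18% ± 0.122 of all FPKM in LKO_NASH livers, 1.28% ± 0.121 in WT_NASH livers, 1.65% ± 0.094 in Ad_Chrebpa_HFLMCD livers and 1.73% ± 0.108 in Ad_GFP_HFLMCD livers (SD, n = 4 each). C3, on which all pathways converge, had the highest median level over the 16 livers, 2021 FPKM. The regulators Clu, a fluid-phase inhibitor of the attack complex, and Vtn, vitronectin, followed with 1382 and 1081 FPKM. Cfb (factor B), Cfi (factor I), C4b, C4bp and C9 came next, at 532, 279, 273, 262 and 209 FPKM. At the other end, C7 had a median of 0.53 FPKM and Cfd (factor D) one of 0.225 FPKM. The terminal pathway was thus measured at very unequal levels, with Hc, C6, the C8 subunits and C9 between 96.9 and 209 FPKM and C7 near the bottom of the list.

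**Figure D1:**
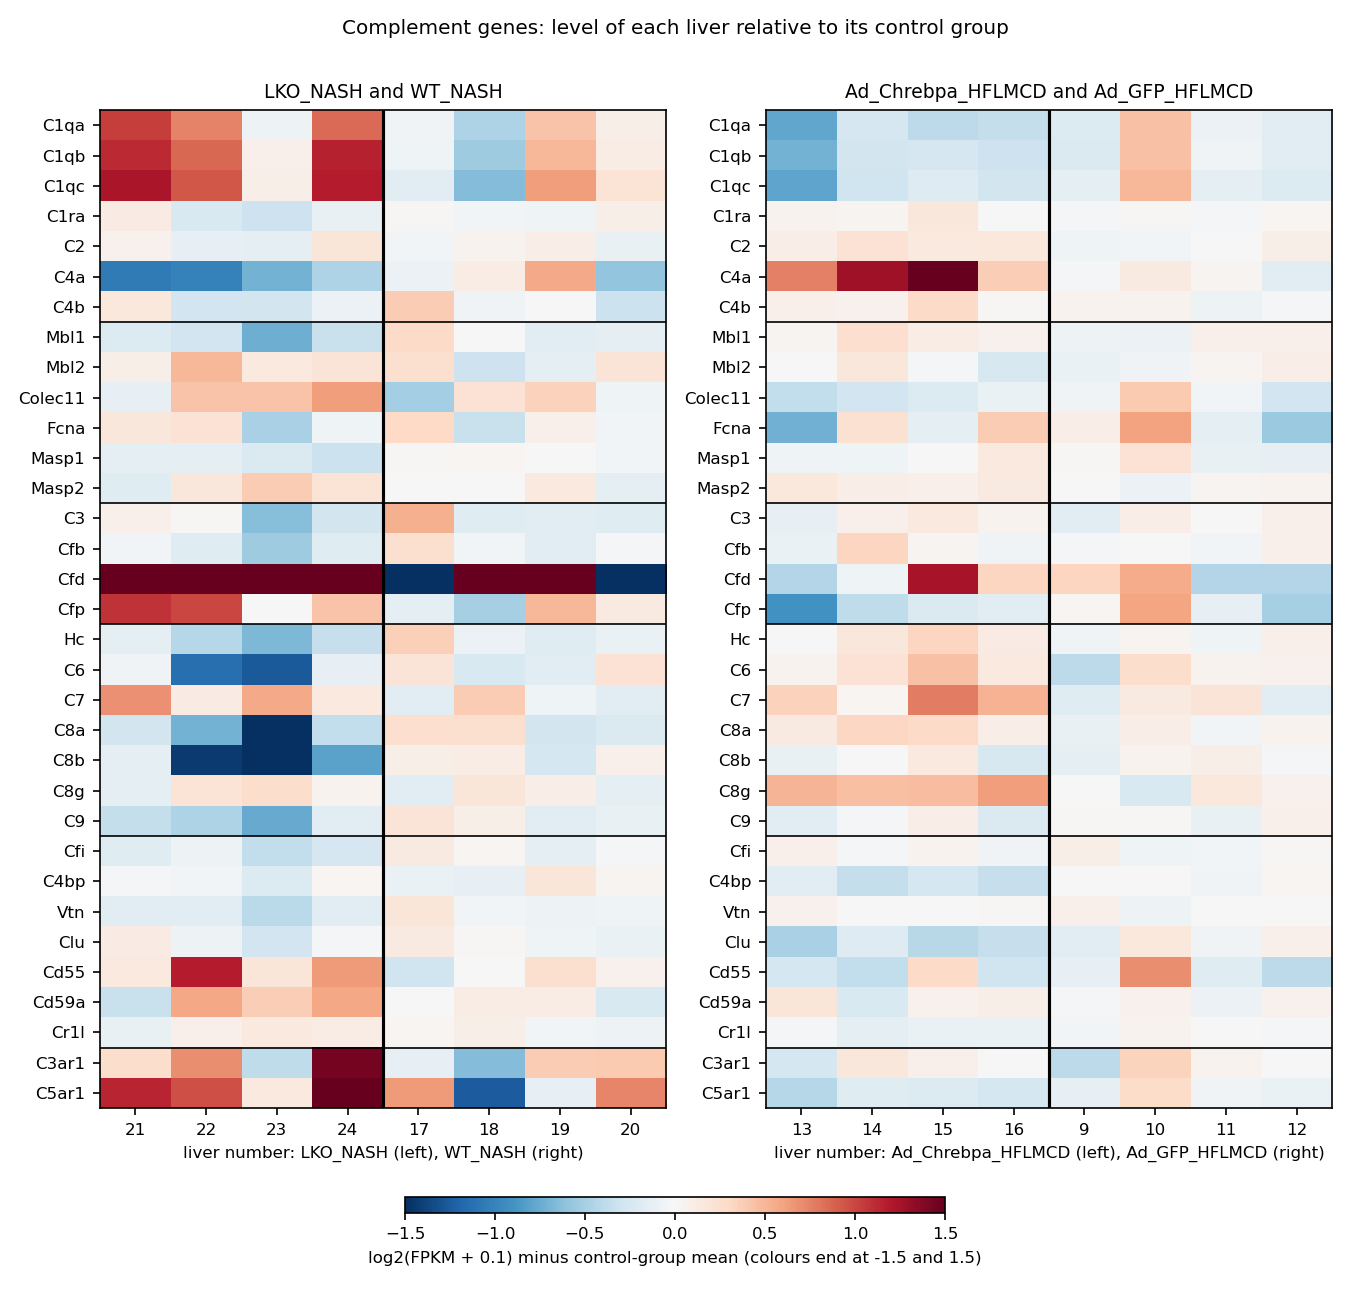
Level of each of the 33 complement genes in each liver, as log2(FPKM + 0.1) minus the mean of the control group of the same experiment. Columns are livers (the Chrebpα group left of the black line, its control right of it), rows are genes with black lines between the roles, red is higher and blue lower. The C8a, C8b and C6 rows are darkest blue in LKO_NASH livers 22 and 23, the 3 C1q rows are red in LKO_NASH livers 21, 22 and 24, and C4a and C8g are red in all 4 Ad_Chrebpa_HFLMCD livers.

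With Chrebpα deleted on the NASH diet, no member was called, and no gene of the whole table was (0% of 12786). Of the 33 members, 13 had a positive and 20 a negative fold change, with a median of -0.18 on the log2 scale against 0.01 over all genes, of which 51.5% were positive and 48.5% negative. At an unadjusted edgeR p below 0.05, 2 members were higher (C1qb and C1qc) and 11 lower (C4a, Mbl1, Masp1, Cfb, Hc, C6, C8a, C8b, C9, Cfi and Vtn), which is 39.4% of the members against 13.6% of all genes, 7.7% higher and 5.88% lower. Those counts were 4 higher and 7 lower by limma on log2(FPKM + 1), against 2241 and 190 of all 13141 genes in that fit. The member counts moved with single livers, and so did the counts over all genes. Over all genes, edgeR gave 985 higher and 752 lower with every liver kept. These became 541 and 370 without liver 24, and 1761 and 1952 without liver 21. No member was higher at that level when liver 17, 18, 20 or 24 was left out, 1 was in the absence of liver 22, 4 were in that of liver 19 and 5 in that of liver 23. The number lower was 7 once liver 17 was dropped, 8 once liver 23 or 24 was, and between 9 and 12 in the other 5 fits. None of these 13 passed the adjustment, for which the lowest value among the members was 0.305. In 4 members, Mbl1, Masp1, C9 and Vtn, every LKO_NASH liver lay below every WT_NASH liver in FPKM, an arrangement found in 0.673% of all genes. No member had every LKO_NASH liver above every WT_NASH liver, against 6.93% of all genes, so that 7.6% of all genes did not overlap in either direction. By DESeq2, C9 and C4a were called lower in LKO_NASH livers, where 1.24% of all genes were called, and with all 16 libraries in one edgeR fit C8b and C9 were, where 1.1% were.

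With Chrebpα overexpressed on the HFLMCD diet, 4 of 32 tested members rose, C8g, C4a, C8a and C2, and none fell by edgeR. That is 12.5% of the tested members, against 8.13% of 13658 genes in either direction with 4.95% higher and 3.18% lower. Across the tested members 21 fold changes were positive and 11 negative, with a median of 0.08 on the log2 scale against -0.01 over all genes, of which 47.4% were positive and 52.6% negative. At an unadjusted edgeR p below 0.05, 10 members were higher and 5 lower, 46.9% against 26.5% of all genes. FPKM did not overlap between the groups in 5 higher members (C2, C4a, Masp2, C8a and C8g; 4.84% of all genes) and in 5 lower ones (C1qa, C1qb, C4bp, Clu and C5ar1; 14.5%). Cfd had too few counts there to be tested. C8g was called in each of the 8 fits that left out 1 liver, C4a in 6 of 8, C8a in 3 of 8 and C2 in 2 of 8. Under other fits the count was 4 members with DESeq2 size factors (8.35% of all genes), 4 with no count filter (6.11%), 4 at a mean FPKM of at least 1 (8.74%), 4 with transcript entries kept apart (8.05%) and 5 by limma-voom (4 higher and Clu lower, 7.97%). It was 2 with all 16 libraries in one fit (2.43%), both higher. The balance of directions moved with the scale and the tool. By limma on log2(FPKM + 1) C8g was called higher and C4bp and Clu lower (10.3% of all genes), and with no filter C8g higher and C4bp lower (6.92%). On log2(FPKM + 0.1) C4a and C8g were called higher and C4bp and Clu lower (10.5%). By DESeq2 6 members were called higher, C1ra and Hc besides those called by edgeR, and 2 lower, C4bp and Clu (14.2%). Without liver 13 or 14, 1 member was called lower by edgeR.

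**Figure D2:**
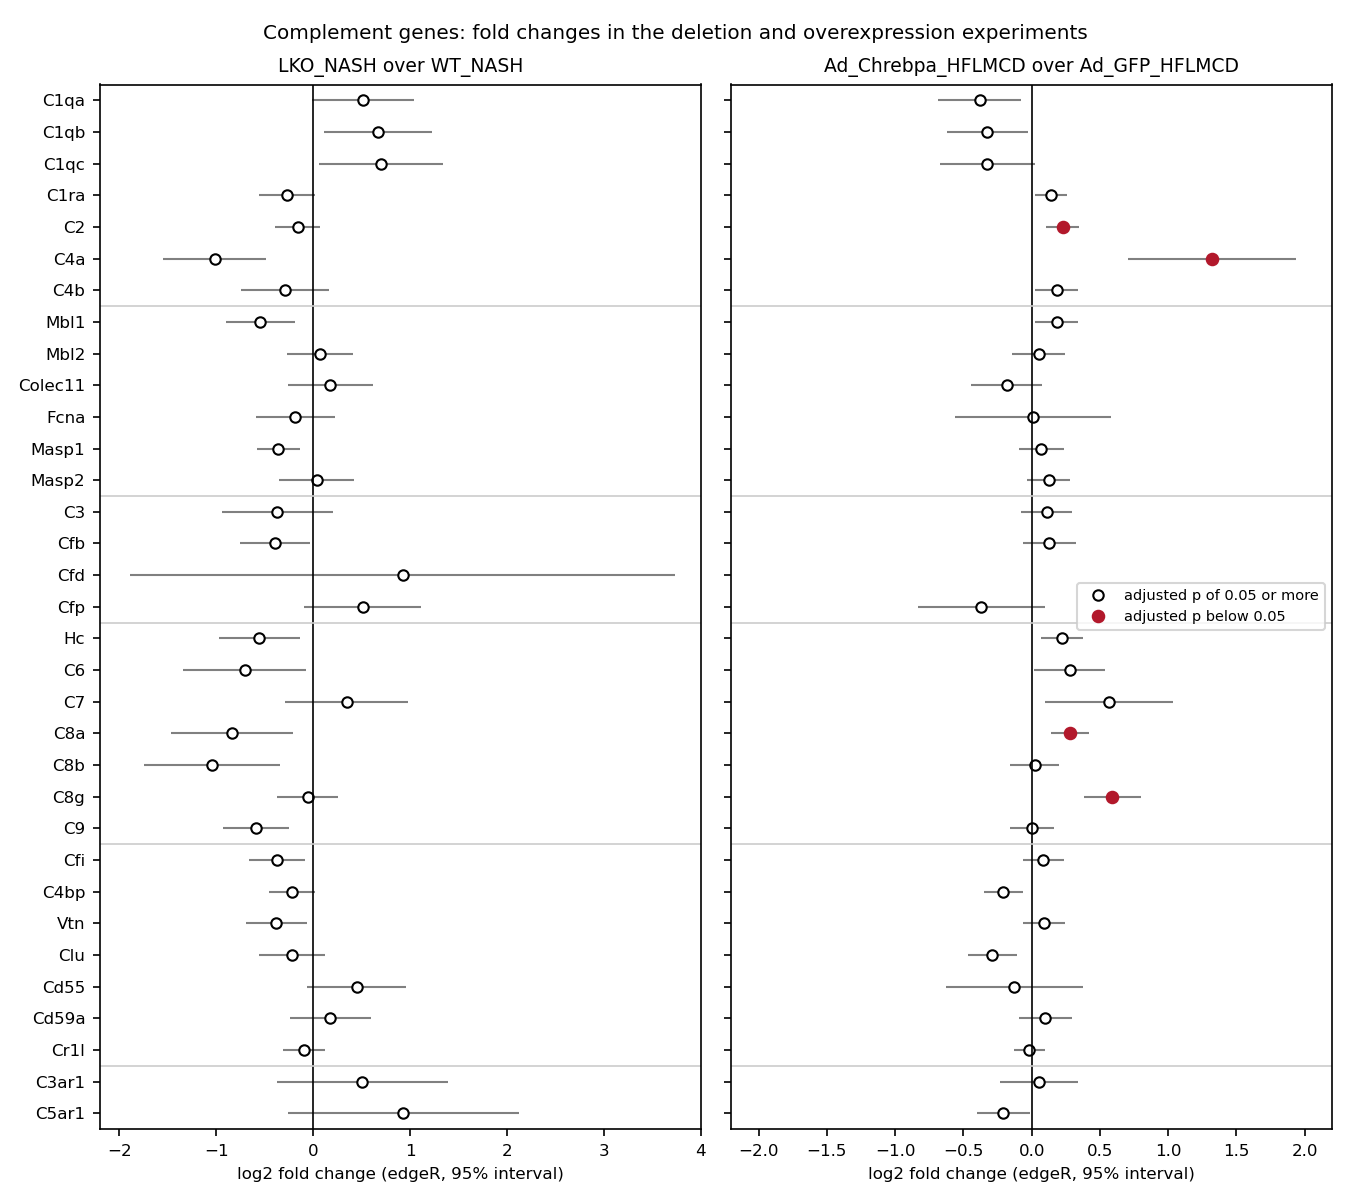
Fold changes of the complement genes in both experiments, on the log2 scale from edgeR with 95% intervals. The left panel shows LKO_NASH over WT_NASH and the right panel Ad_Chrebpa_HFLMCD over Ad_GFP_HFLMCD; filled red points have an adjusted p below 0.05 and open points do not, and Cfd has no point on the right. Most intervals of the terminal pathway lie left of 0 in the left panel, and the filled points C2, C4a, C8a and C8g lie right of 0 in the right panel.

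The chains of C1q, the recognition molecule of the classical pathway, varied together from liver to liver. C1qa, C1qb and C1qc lie side by side on chromosome 4 with no protein-coding gene between them in RefSeq. C1qa had 63.9, 52.1, 29.6 and 56.4 FPKM in the LKO_NASH livers, against 30.0, 22.6, 41.8 and 33.2 FPKM in the WT_NASH livers. C1qb had 60.8, 50.9, 29.6 and 62.7 FPKM in the LKO_NASH livers, against 26.7, 19.3, 39.5 and 30.2 FPKM in the WT_NASH livers. C1qc had 61.0, 49.8, 27.7 and 58.9 FPKM in the LKO_NASH livers, against 23.2, 16.5, 40.2 and 29.9 FPKM in the WT_NASH livers. In each chain livers 21, 22 and 24 lay above all WT_NASH livers and liver 23 lay within them. The log2 fold changes were 0.52 ± 0.23 (SE) for C1qa, 0.67 ± 0.25 (SE) for C1qb and 0.70 ± 0.28 (SE) for C1qc. None was called, with edgeR adjusted p of 0.372, 0.356 and 0.358. In whole liver, fewer or more cells of a type and less or more RNA per cell cannot be told apart, so the level of C1q was set beside macrophage markers.

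All 18 macrophage and Kupffer cell markers were detected in every group, and 17 of 18 had a positive fold change in LKO_NASH livers, with a median of 0.72 on the log2 scale and none called. Their summed level ranged from 129 to 341 FPKM in LKO_NASH livers and from 104 to 204 FPKM in WT_NASH livers. The summed C1q level was 151 ± 44.9 FPKM in LKO_NASH livers and 88.3 ± 26.4 FPKM in WT_NASH livers. Per unit of macrophage marker it was 0.585 ± 0.063 in LKO_NASH livers and 0.609 ± 0.037 in WT_NASH livers, and the groups overlapped. Per unit of Adgre1, Clec4f and Csf1r alone the direction was the opposite, with 3.57 ± 0.517 in LKO_NASH livers and 3.17 ± 0.211 in WT_NASH livers, again with overlap. Liver 23, the lowest of its group in C1q, was also lowest in 15 of the 18 markers. Liver 21, the highest of LKO_NASH in summed C1q, was highest in 8 of the 18. In WT_NASH, liver 19 was highest in summed C1q and in 13 markers, and liver 18 lowest in summed C1q and in 9 markers.

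In the overexpression experiment C1q stood the other way round. C1qa had 98.0, 141, 128 and 131 FPKM in the Ad_Chrebpa_HFLMCD livers, against 146, 228, 158 and 151 FPKM in the Ad_GFP_HFLMCD livers. C1qb had 117, 157, 159.9 and 153 FPKM in the Ad_Chrebpa_HFLMCD livers, against 164, 257, 183 and 169 FPKM in the Ad_GFP_HFLMCD livers. C1qc had 92.3, 130.1, 140.1 and 132 FPKM in the Ad_Chrebpa_HFLMCD livers, against 144, 225, 144 and 139 FPKM in the Ad_GFP_HFLMCD livers. All Ad_Chrebpa_HFLMCD livers were below all Ad_GFP_HFLMCD livers in C1qa and C1qb, and liver 10 was the highest and liver 13 the lowest of the 8 in every chain. The log2 fold changes were -0.38 ± 0.14 (SE), -0.32 ± 0.13 (SE) and -0.32 ± 0.16 (SE) for C1qa, C1qb and C1qc, with edgeR adjusted p of 0.113, 0.153 and 0.216. Without liver 10 they were -0.23, -0.18 and -0.15. The macrophage markers summed to 1130.2 to 1670.1 FPKM in Ad_Chrebpa_HFLMCD livers and 1302 to 1969.9 FPKM in Ad_GFP_HFLMCD livers. Their median fold change was -0.12, with 0 of 18 called. In Ad_Chrebpa_HFLMCD, liver 14 was highest in summed C1q and in 4 markers, and liver 13 lowest in summed C1q and in 15 markers. In Ad_GFP_HFLMCD, liver 10 was highest in summed C1q and in 15 markers, and liver 9 lowest in summed C1q and in 8 markers. C1q per unit of macrophage marker was 0.272 ± 0.015 in Ad_Chrebpa_HFLMCD livers, from 0.257 to 0.293, and 0.335 ± 0.024 in Ad_GFP_HFLMCD livers, from 0.307 to 0.361. Those ranges do not overlap, but with Adgre1, Clec4f and Csf1r alone as markers they did. The values were then 4.60 ± 0.389 in Ad_Chrebpa_HFLMCD livers and 4.78 ± 0.874 in Ad_GFP_HFLMCD livers. The largest parts of the sum of 18 markers were Lyz2 and Ctss. Lyz2 averaged 510 ± 103 FPKM in Ad_Chrebpa_HFLMCD livers and 561 ± 74.6 FPKM in Ad_GFP_HFLMCD livers. Ctss averaged 289 ± 51.6 FPKM in the former and 272 ± 47.3 FPKM in the latter. The test of the difference between the fold changes of the 2 experiments gave 0.87, 0.97 and 1.00 on the log2 scale for the chains, with edgeR adjusted p of 0.112, 0.0936 and 0.124.

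**Figure D3:**
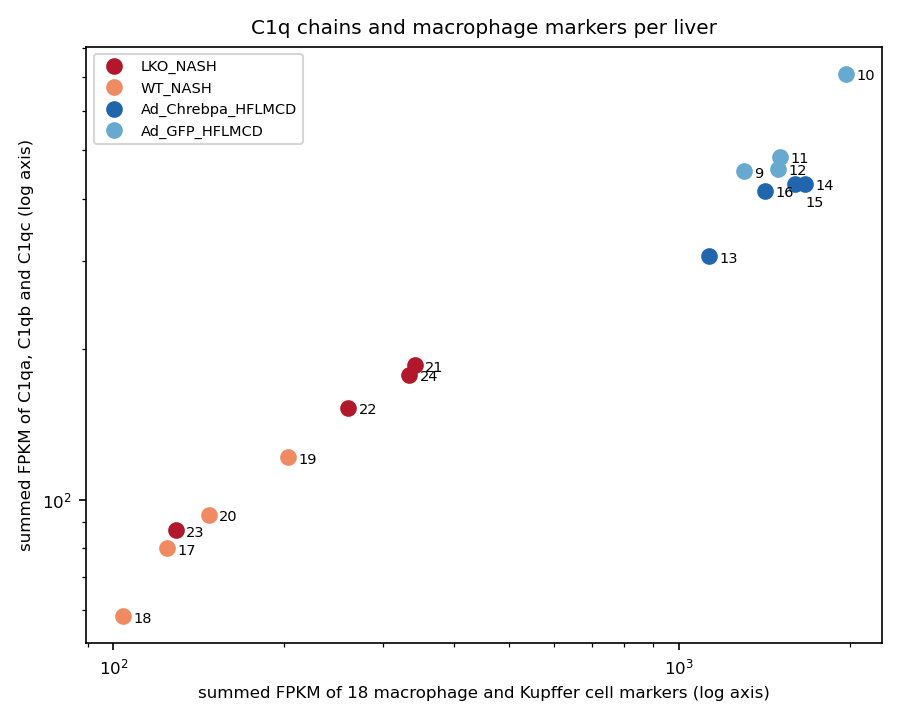
Summed FPKM of C1qa, C1qb and C1qc against summed FPKM of 18 macrophage and Kupffer cell markers, both on log axes, with 1 point per liver labelled by liver number and coloured by group. LKO_NASH liver 23 sits among the WT_NASH livers at the lower left, and the 4 Ad_Chrebpa_HFLMCD points lie lower than the Ad_GFP_HFLMCD points at like marker levels.

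The windows before C1qb and C1qc are shown because these genes differ from the hepatocyte-made members in the cells that express them, and both hold the letters of a core site of PU.1, a factor of the myeloid lineage. Sequences are the RefSeq windows of GRCm38.p6 from 250 bases before to 50 bases after the annotated start, C1qb at chr4:136886151-136886450 on the minus strand and C1qc at chr4:136892865-136893164 on the minus strand. Capitals mark GAGGAA or its reverse complement.
C1qb: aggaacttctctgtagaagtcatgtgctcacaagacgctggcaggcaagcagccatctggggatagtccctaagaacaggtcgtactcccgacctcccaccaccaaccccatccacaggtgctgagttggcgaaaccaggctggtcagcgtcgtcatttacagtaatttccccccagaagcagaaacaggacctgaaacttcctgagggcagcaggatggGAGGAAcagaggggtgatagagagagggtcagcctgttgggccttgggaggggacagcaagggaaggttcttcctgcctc
C1qc: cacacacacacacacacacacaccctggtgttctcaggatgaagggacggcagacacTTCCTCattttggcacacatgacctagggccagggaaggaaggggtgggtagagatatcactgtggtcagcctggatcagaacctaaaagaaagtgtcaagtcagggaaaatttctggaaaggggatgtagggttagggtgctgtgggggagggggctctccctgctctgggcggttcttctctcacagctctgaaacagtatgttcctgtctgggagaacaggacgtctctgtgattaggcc
GAGGAA, searched on both strands, is in 28.3% of all 32851 windows of the table and in 6 of 26 windows of the members.

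Among the other classical genes, C2 and C4a rose with Chrebpα overexpression. C2 encodes the protease of the C3 convertase. It had 65.0, 70.6, 67.4 and 67.8 FPKM in the Ad_Chrebpa_HFLMCD livers, against 58.2, 59.0, 61.2 and 64.5 FPKM in the Ad_GFP_HFLMCD livers, and every Ad_Chrebpa_HFLMCD liver was above every Ad_GFP_HFLMCD liver. The log2 fold change was 0.23 ± 0.05 (SE), with an edgeR adjusted p of 0.0338. In the deletion experiment C2 averaged 35.5 ± 3.96 FPKM in LKO_NASH livers and 35.5 ± 2.34 FPKM in WT_NASH livers, with a log2 fold change of -0.16 ± 0.10 (SE). C2 and Cfb are neighbours with no protein-coding gene between them, and Cfb did not pass the test in either experiment. C1ra, the protease that C1q activates, averaged 139 ± 18.6 FPKM in LKO_NASH livers and 151 ± 7.17 FPKM in WT_NASH livers (-0.27 ± 0.13 (SE)). It averaged 196 ± 10.1 FPKM in Ad_Chrebpa_HFLMCD livers and 187 ± 3.73 FPKM in Ad_GFP_HFLMCD livers (0.14 ± 0.05 (SE), edgeR adjusted p 0.128).

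C4b encodes the main mouse C4, and C4a encodes its near-identical copy Slp, so reads may have been split between them with error. C4a had 1.22, 1.79, 2.60 and 0.91 FPKM in the Ad_Chrebpa_HFLMCD livers, against 0.67, 0.76, 0.7 and 0.6 FPKM in the Ad_GFP_HFLMCD livers, and the groups did not overlap. Its log2 fold change was 1.32 ± 0.28 (SE), with an edgeR adjusted p of 0.0213, and it lost the call without liver 11 (adjusted p 0.0516) or liver 12 (0.062). On log2(FPKM + 1), a scale that compresses such low levels, the difference was 0.60 with a limma adjusted p of 0.0516. C4b had 249, 246, 287 and 238 FPKM in the Ad_Chrebpa_HFLMCD livers, against 245, 245, 224 and 231 FPKM in the Ad_GFP_HFLMCD livers, and the groups overlapped. Its log2 fold change was 0.18 ± 0.07 (SE) and its edgeR adjusted p 0.129. C4a supplied 0.622% ± 0.233 of the C4 sum in Ad_Chrebpa_HFLMCD livers and 0.288% ± 0.026 in Ad_GFP_HFLMCD livers.

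In the deletion experiment C4a had the lowest unadjusted p of all members. It had 9.16, 9.45, 11.7 and 13.9 FPKM in the LKO_NASH livers, against 18.1, 20.7, 28.6 and 12.7 FPKM in the WT_NASH livers, with only WT_NASH liver 20 inside the LKO_NASH range. The log2 fold change was -1.02 ± 0.24 (SE), with an unadjusted edgeR p of 0.00195 and an adjusted p of 0.305. By DESeq2 the same difference had an adjusted p of 0.0136. C4b had 377, 276, 278 and 317 FPKM in the LKO_NASH livers, against 438, 324, 336 and 270.2 FPKM in the WT_NASH livers, and the groups overlapped (-0.29 ± 0.20 (SE), edgeR adjusted p 0.502). C4a made up 3.48% ± 0.834 of the C4 sum in LKO_NASH livers and 5.57% ± 1.74 in WT_NASH livers. The test of the difference between both fold changes gave -2.36 ± 0.39 (SE) for C4a, with an edgeR adjusted p of 0.00682, and it was called in all 16 fits that left out 1 liver.

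In the lectin pathway nothing was called in either comparison, and Mbl1 and Mbl2, the mannose-binding lectins, are described first for the deletion experiment. Mbl1 had 98.9, 92.8, 68.5 and 90.0 FPKM in the LKO_NASH livers, against 139, 114, 101 and 104 FPKM in the WT_NASH livers, and all LKO_NASH livers were below all WT_NASH livers. The fit gave Mbl1 a log2 fold change of -0.54 ± 0.16 (SE), with an unadjusted edgeR p of 0.00702 and an adjusted p of 0.31. Mbl2 averaged 237 ± 31.8 FPKM in LKO_NASH livers and 203 ± 36.4 FPKM in WT_NASH livers (0.07 ± 0.15 (SE)), with a sign that turned when WT_NASH liver 18 or LKO_NASH liver 22 was left out. Mbl2 FPKM was 2.75 ± 0.499 times that of Mbl1 in LKO_NASH livers and 1.79 ± 0.33 times in WT_NASH livers, and these ranges met between 2.15 and 2.22. Masp1, a protease that binds these lectins, had 26.2, 26.2, 25.0 and 23.4 FPKM in the LKO_NASH livers, against 29.6, 29.7, 29.0 and 28.4 FPKM in the WT_NASH livers. All LKO_NASH livers were below all WT_NASH livers, with a log2 fold change of -0.36 ± 0.10 (SE), an unadjusted edgeR p of 0.00478 and an adjusted p of 0.31. The span of Masp1 overlaps that of Rtp4 in RefSeq, and the sources used here do not say whether counting used strand. Rtp4 had a log2 fold change of 0.41 in the same fit, and the part of its reads in the Masp1 counts was not tested.

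The remaining lectin genes showed no call. Masp2, the protease that cleaves C4 and C2, averaged 174 ± 27.1 FPKM in LKO_NASH livers and 157 ± 12.6 FPKM in WT_NASH livers (0.04 ± 0.17 (SE)). Its sign turned when WT_NASH liver 20 or LKO_NASH liver 23 was left out. Colec11, a collectin, averaged 21.2 ± 4.35 FPKM in LKO_NASH livers and 16.8 ± 4.16 FPKM in WT_NASH livers (0.18 ± 0.19 (SE)). Fcna, ficolin A, averaged 16.8 ± 3.53 FPKM in LKO_NASH livers and 17.1 ± 3.06 FPKM in WT_NASH livers (-0.18 ± 0.18 (SE)). In each of these genes the groups overlapped. With Chrebpα overexpressed, Mbl1 averaged 111 ± 7.47 FPKM in Ad_Chrebpa_HFLMCD livers and 103 ± 6.69 FPKM in Ad_GFP_HFLMCD livers (0.18 ± 0.07 (SE), edgeR adjusted p 0.129). Mbl2 averaged 172 ± 19.9 FPKM in Ad_Chrebpa_HFLMCD livers and 174 ± 11.2 FPKM in Ad_GFP_HFLMCD livers (0.05 ± 0.09 (SE)), negative on the FPKM scales. Neither lectin passed the test. The ratio of Mbl2 to Mbl1 was 1.54 ± 0.118 in Ad_Chrebpa_HFLMCD livers and 1.69 ± 0.044 in Ad_GFP_HFLMCD livers. Masp1 averaged 36.1 ± 2.51 FPKM in Ad_Chrebpa_HFLMCD livers and 36.2 ± 4.08 FPKM in Ad_GFP_HFLMCD livers (0.07 ± 0.08 (SE)). Masp2 averaged 119 ± 2.65 FPKM in Ad_Chrebpa_HFLMCD livers and 109 ± 4.54 FPKM in Ad_GFP_HFLMCD livers (0.12 ± 0.07 (SE)), and all Ad_Chrebpa_HFLMCD livers were above all Ad_GFP_HFLMCD livers. The span of Masp2 overlaps that of Tardbp, a protein-coding gene, which averaged 10.8 ± 0.654 FPKM in Ad_Chrebpa_HFLMCD livers and 11.9 ± 0.793 FPKM in Ad_GFP_HFLMCD livers, with a log2 fold change of -0.07. The transcript length behind its FPKM varied 1.40-fold between libraries, so FPKM and counts of Masp2 need not move together. Colec11 averaged 26.7 ± 2.18 FPKM in Ad_Chrebpa_HFLMCD livers and 31.9 ± 6.63 FPKM in Ad_GFP_HFLMCD livers (-0.18 ± 0.12 (SE)). Fcna averaged 16.6 ± 5.15 FPKM in Ad_Chrebpa_HFLMCD livers and 17.3 ± 5.89 FPKM in Ad_GFP_HFLMCD livers (0.01 ± 0.26 (SE)), a value near 0 whose sign turned on the FPKM scales. For Mbl1 the difference between the 2 fold changes was -0.75 ± 0.18 (SE), with an edgeR adjusted p of 0.0428, and it was called in 3 of 16 fits that left out 1 liver, those without livers 19, 20 and 21.

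C3 and the alternative pathway showed no call in either experiment. C3 had 1476, 1412, 895 and 1149 FPKM in the LKO_NASH livers, against 2016, 1236, 1242 and 1227 FPKM in the WT_NASH livers. The livers overlapped, with liver 17 of WT_NASH far above the other 3 of its group and liver 23 of LKO_NASH lowest. The log2 fold change was -0.37 ± 0.25 (SE) with an edgeR adjusted p of 0.493, and without liver 17 it was -0.14. C3 had 2091, 2394, 2515 and 2371 FPKM in the Ad_Chrebpa_HFLMCD livers, against 2025, 2435, 2265 and 2408 FPKM in the Ad_GFP_HFLMCD livers, an overlap over nearly the whole range (0.11 ± 0.08 (SE), edgeR adjusted p 0.436). Cfb, factor B, averaged 379 ± 51.4 FPKM in LKO_NASH livers and 446 ± 55.1 FPKM in WT_NASH livers (-0.39 ± 0.16 (SE), edgeR adjusted p 0.358). It averaged 603 ± 81.3 FPKM in Ad_Chrebpa_HFLMCD livers and 578 ± 22.3 FPKM in Ad_GFP_HFLMCD livers (0.13 ± 0.09 (SE)). Cfp encodes properdin, which stabilises the alternative convertase and is made by myeloid cells. It averaged 14.7 ± 4.89 FPKM in LKO_NASH livers and 9.37 ± 2.72 FPKM in WT_NASH livers (0.51 ± 0.27 (SE)), and 25.6 ± 5.47 FPKM in Ad_Chrebpa_HFLMCD livers and 34.9 ± 11.4 FPKM in Ad_GFP_HFLMCD livers (-0.37 ± 0.21 (SE)). As in the C1q chains, liver 10 was highest and liver 13 lowest of the overexpression experiment.

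Cfd encodes factor D, the protease of the alternative pathway known mainly from adipocytes. It was the most variable member. Cfd had 16.4, 36.6, 67.8 and 107 FPKM in the LKO_NASH livers, against 0.48, 60.2, 44.5 and 0.23 FPKM in the WT_NASH livers. Livers 17 and 20 of WT_NASH were thus near 0 and livers 18 and 19 among the LKO_NASH values. The log2 fold change was 0.92 ± 1.24 (SE), an interval from -1.88 to 3.73 that allows a large difference in either direction. Cfd had 0, 0.03, 0.22 and 0.07 FPKM in the Ad_Chrebpa_HFLMCD livers, against 0.07, 0.1, 0 and 0 FPKM in the Ad_GFP_HFLMCD livers, where 0 stands for a gene not listed. Cfd was listed in 13 of the 16 livers. Adipocyte markers other than Fabp4 summed to 0.12 FPKM at most in any liver, in those with high Cfd too. Fabp4 had 39.0, 19.6, 16.7 and 27.8 FPKM in the LKO_NASH livers, against 21.1, 11.8, 11.6 and 25.4 FPKM in the WT_NASH livers. The cell source of Cfd was not tested.

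The terminal pathway held the most members with a negative fold change in LKO_NASH livers, 6 of 7, with a median of -0.59 on the log2 scale against 0.01 over all genes and 5 at an unadjusted edgeR p below 0.05. Hc, which encodes C5, had 182, 148, 125 and 158 FPKM in the LKO_NASH livers, against 257, 188, 176 and 187 FPKM in the WT_NASH livers. Only liver 21 reached into the WT_NASH range. For Hc the log2 fold change was -0.55 ± 0.18 (SE), with an unadjusted edgeR p of 0.0143 and an adjusted p of 0.343. C6 averaged 73.0 ± 30.9 FPKM in LKO_NASH livers and 107 ± 17.2 FPKM in WT_NASH livers (-0.71 ± 0.28 (SE), edgeR adjusted p 0.357). Its livers 22 and 23 were at 48.3 and 44.3 FPKM and livers 21 and 24 at 102 and 97.4 FPKM, inside the WT_NASH range. C7, which neighbours C6 with 1 protein-coding gene between them, averaged 0.507 ± 0.121 FPKM in LKO_NASH livers and 0.365 ± 0.0911 FPKM in WT_NASH livers, and was the one terminal member with a positive value (0.35 ± 0.28 (SE)). C9, the pore-forming subunit, had 179, 166, 136 and 203 FPKM in the LKO_NASH livers, against 263, 243, 205 and 213 FPKM in the WT_NASH livers. Every LKO_NASH liver was below every WT_NASH liver, by a narrow margin. The log2 fold change of C9 was -0.59 ± 0.15 (SE), with an unadjusted edgeR p of 0.00353 and an adjusted p of 0.307, which was 0.025 by DESeq2 and 0.0362 with all 16 libraries in one fit.

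The subunits of C8 separated from each other. C8a and C8b encode the α and β subunits and lie side by side on chromosome 4, and C8g, on chromosome 2, encodes the γ subunit, a lipocalin. C8a had 191, 141, 77.8 and 179 FPKM in the LKO_NASH livers, against 275, 273, 191 and 198 FPKM in the WT_NASH livers. C8b had 125, 51.1, 44.6 and 79.0 FPKM in the LKO_NASH livers, against 147, 149.6, 115 and 146 FPKM in the WT_NASH livers. C8g had 166, 211, 219 and 189 FPKM in the LKO_NASH livers, against 164, 207, 196 and 167 FPKM in the WT_NASH livers. Livers 22 and 23 were low in C8a and C8b but highest in C8g, and liver 21 was close to the WT_NASH livers in all subunits. The log2 fold changes were -0.83 ± 0.28 (SE) for C8a, -1.04 ± 0.31 (SE) for C8b and -0.05 ± 0.14 (SE) for C8g, with edgeR adjusted p of 0.343, 0.316 and 0.857. The sign for C8g turned on the FPKM scales and without liver 18 or 21. Without liver 21, C8b was at -1.44 and was called lower (edgeR adjusted p 0.0213), in a fit that called 3.24% of all genes. C8a was then at -1.01 with an adjusted p of 0.0683. C8g FPKM was 3.19 ± 1.63 times that of C8b in LKO_NASH livers and 1.34 ± 0.274 times in WT_NASH livers. The ratio was 1.33 in liver 21 and 4.91 in liver 23, and 3 of 4 LKO_NASH livers were above the WT_NASH range of 1.12 to 1.71.

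With Chrebpα overexpressed, C8g and C8a rose and C8b did not pass the test. C8g had 162, 155, 156 and 176 FPKM in the Ad_Chrebpa_HFLMCD livers, against 114, 97.3, 127 and 119 FPKM in the Ad_GFP_HFLMCD livers, well apart from each other. Its log2 fold change was 0.59 ± 0.09 (SE), with an edgeR adjusted p of 0.00778, and it kept the call under every alternative of fit, filter and scale tried and in all 8 fits that left out 1 liver. C8a had 163, 184, 181 and 158 FPKM in the Ad_Chrebpa_HFLMCD livers, against 137, 158, 144 and 154 FPKM in the Ad_GFP_HFLMCD livers, the lowest Ad_Chrebpa_HFLMCD liver just above the highest Ad_GFP_HFLMCD liver. Its log2 fold change was 0.28 ± 0.06 (SE), with an edgeR adjusted p of 0.0264, and 0.0767 by limma on log2(FPKM + 1). C8b had 116, 124, 138 and 106 FPKM in the Ad_Chrebpa_HFLMCD livers, against 114, 130.0, 133 and 124 FPKM in the Ad_GFP_HFLMCD livers, with full overlap (0.02 ± 0.08 (SE)), and its sign turned on the FPKM scales. The ratio of C8g to C8b was 1.36 ± 0.228 in Ad_Chrebpa_HFLMCD livers and 0.916 ± 0.113 in Ad_GFP_HFLMCD livers, without overlap. The span of C8g overlaps that of Fbxw5 in RefSeq, and that of C8a overlaps Fyb2. Fbxw5 averaged 22.3 ± 0.484 FPKM in Ad_Chrebpa_HFLMCD livers and 23.8 ± 1.14 FPKM in Ad_GFP_HFLMCD livers, with a log2 fold change of -0.03, and Fyb2 had one of -0.22. The part of reads from these partners in the C8g and C8a counts was not tested.

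The windows before the C8 genes are shown because the subunits of one protein differed in level. They are RefSeq windows of GRCm38.p6, C8a at chr4:104876349-104876648 on the minus strand, C8b at chr4:104766067-104766366 on the plus strand and C8g, the more upstream of 2 annotated starts, at chr2:25501670-25501969 on the minus strand. Capitals mark TTCNNNGAA, the letters of a STAT site, and GTTAAT, a half-site of the hepatocyte factor HNF1, or the reverse complement of either.
C8a: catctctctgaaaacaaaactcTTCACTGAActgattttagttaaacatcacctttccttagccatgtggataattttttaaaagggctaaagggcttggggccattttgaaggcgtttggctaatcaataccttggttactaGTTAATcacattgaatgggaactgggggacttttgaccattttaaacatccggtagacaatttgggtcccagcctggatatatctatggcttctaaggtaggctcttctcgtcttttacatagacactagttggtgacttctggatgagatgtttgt
C8b: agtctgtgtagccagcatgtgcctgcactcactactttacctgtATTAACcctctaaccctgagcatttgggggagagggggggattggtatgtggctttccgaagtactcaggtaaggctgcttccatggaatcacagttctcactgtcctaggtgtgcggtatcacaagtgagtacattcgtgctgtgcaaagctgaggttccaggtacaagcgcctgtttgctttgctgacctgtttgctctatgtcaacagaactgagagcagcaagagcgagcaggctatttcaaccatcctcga
C8g: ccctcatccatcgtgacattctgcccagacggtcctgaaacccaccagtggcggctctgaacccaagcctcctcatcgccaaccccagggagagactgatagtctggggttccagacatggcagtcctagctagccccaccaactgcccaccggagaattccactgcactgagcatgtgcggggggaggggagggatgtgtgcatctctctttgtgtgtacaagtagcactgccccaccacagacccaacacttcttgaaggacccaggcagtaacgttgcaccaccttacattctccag
C8a held 1 STAT site and 1 HNF1 half-site and C8b 1 HNF1 half-site, and neither motif is spelled in the C8g window. The STAT site was found in 6 of 26 member windows and 8.30% of all windows, and GTTAAT in 9 of 26 and 7.10%. The C/EBP site TTGCNNAA was in 3 of 26 member windows and 10.8% of all. CACGTG, the core E-box of the kind that ChREBP and other factors bind, was in 0 of 26 member windows and 7.15% of all. All were searched on both strands. C1qa, C2, C4a, C4b, Masp1, Cfb, Cfi and Clu have no window here.

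The other terminal genes did not pass the test with Chrebpα overexpressed, though 6 of the 7 terminal fold changes were positive, with a median of 0.28 on the log2 scale. Hc had 167, 189, 210.5 and 183 FPKM in the Ad_Chrebpa_HFLMCD livers, against 162, 174, 160.2 and 177 FPKM in the Ad_GFP_HFLMCD livers, with 3 of 4 Ad_Chrebpa_HFLMCD livers above all Ad_GFP_HFLMCD livers. Its log2 fold change was 0.22 ± 0.07 (SE) and its edgeR adjusted p 0.0736. C6 averaged 107 ± 12.4 FPKM in Ad_Chrebpa_HFLMCD livers and 93.1 ± 16.6 FPKM in Ad_GFP_HFLMCD livers (0.28 ± 0.12 (SE)). C7 averaged 0.777 ± 0.185 FPKM in Ad_Chrebpa_HFLMCD livers and 0.55 ± 0.0876 FPKM in Ad_GFP_HFLMCD livers (0.57 ± 0.21 (SE), edgeR adjusted p 0.122). C9 averaged 207 ± 20.1 FPKM in Ad_Chrebpa_HFLMCD livers and 218 ± 12.1 FPKM in Ad_GFP_HFLMCD livers, and its fold change was nearest to 0 of all members tested, with a 95% interval from -0.16 to 0.16 and a sign that turned with DESeq2 and with all 16 libraries in one fit. All 7 terminal genes had a lower fold change in the deletion experiment than in the overexpression experiment, and the difference was called for Hc and C8g. It was -0.80 ± 0.20 (SE) for Hc, with an edgeR adjusted p of 0.0484, and -0.67 ± 0.17 (SE) for C8g, with one of 0.047. Hc was called in 3 and C8g in 4 of 16 fits that left out 1 liver. In that fit 4 of 33 members were called, all lower, against 2.6% of all genes, of which 135 were higher and 224 lower. On log2(FPKM + 1) it called 917 genes higher and 103 lower, and 1 member in each direction.

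**Figure D4:**
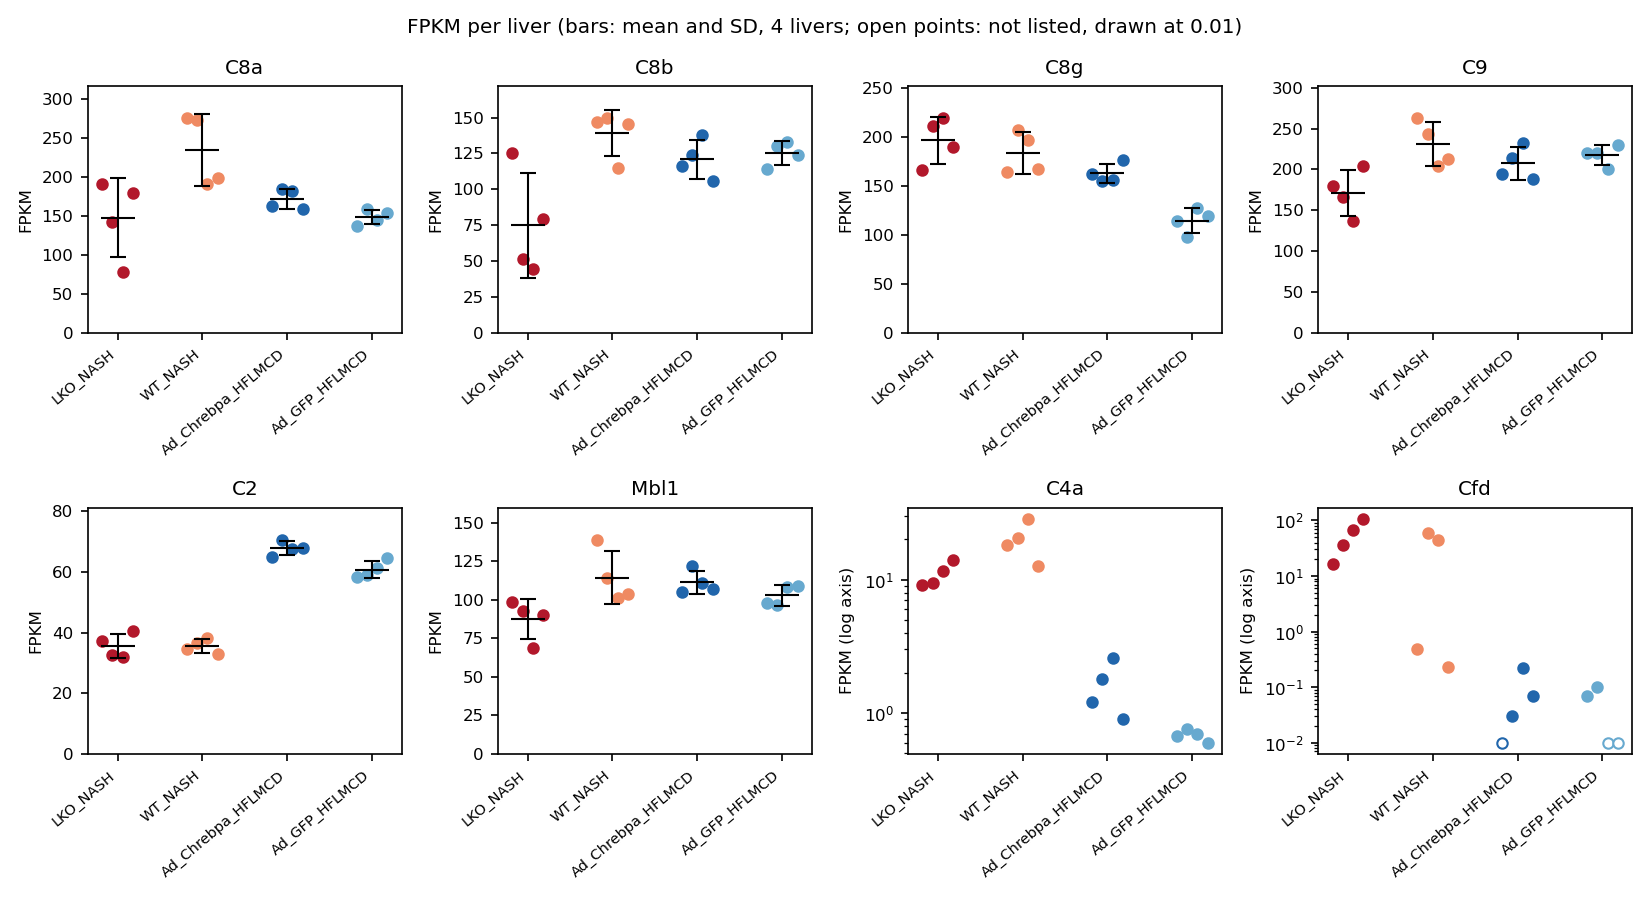
FPKM per liver of the C8 subunits, C9, C2, Mbl1, C4a and Cfd in the 4 groups, with C4a and Cfd on a log axis. Points are livers, bars on the linear axes are the mean and SD of 4 livers, and open points are livers in which Cfd was not listed, drawn at 0.01. C8g is higher in every Ad_Chrebpa_HFLMCD liver than in every Ad_GFP_HFLMCD liver, C8b spreads from 44.6 to 125 FPKM in LKO_NASH livers, and Cfd differs by orders of magnitude within WT_NASH.

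Regulators of complement showed no call in either experiment. In LKO_NASH livers 5 of 7 had a negative fold change. Cfi, the protease that inactivates C3b and C4b, had 258, 278, 227 and 246 FPKM in the LKO_NASH livers, against 322, 298, 264 and 289.5 FPKM in the WT_NASH livers. The groups overlapped only through liver 22. The fit gave Cfi a log2 fold change of -0.37 ± 0.13 (SE), with an unadjusted edgeR p of 0.0175 and an adjusted p of 0.343. Vtn averaged 1069 ± 83.7 FPKM in LKO_NASH livers and 1249 ± 107 FPKM in WT_NASH livers, with every LKO_NASH liver below every WT_NASH liver (-0.38 ± 0.14 (SE), edgeR adjusted p 0.356). C4bp, the cofactor that dissolves the classical convertase, averaged 244 ± 16.4 FPKM in LKO_NASH livers and 256 ± 25.2 FPKM in WT_NASH livers (-0.22 ± 0.11 (SE)). Clu averaged 1213 ± 139 FPKM in LKO_NASH livers and 1267 ± 90.9 FPKM in WT_NASH livers (-0.22 ± 0.15 (SE)). The membrane regulators were less abundant. Cd55, which speeds the decay of convertases, averaged 4.06 ± 1.47 FPKM in LKO_NASH livers and 2.67 ± 0.421 FPKM in WT_NASH livers (0.45 ± 0.22 (SE)). Cd59a, which blocks the attack complex, averaged 39.6 ± 10.3 FPKM in LKO_NASH livers and 31.2 ± 3.29 FPKM in WT_NASH livers (0.18 ± 0.18 (SE)). Cr1l, the rodent regulator Crry, averaged 19.5 ± 1.51 FPKM in LKO_NASH livers and 18.7 ± 0.962 FPKM in WT_NASH livers (-0.09 ± 0.10 (SE)), a value whose sign turned on the FPKM scales.

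With Chrebpα overexpressed, Clu and C4bp came closest to a call in the lower direction. Clu had 1376, 1679, 1441 and 1513 FPKM in the Ad_Chrebpa_HFLMCD livers, against 1707, 2137, 1849 and 2021 FPKM in the Ad_GFP_HFLMCD livers, and all Ad_Chrebpa_HFLMCD livers were below all Ad_GFP_HFLMCD livers. For Clu the log2 fold change was -0.29 ± 0.08 (SE), with an edgeR adjusted p of 0.0562. C4bp had 294, 259, 276 and 260.3 FPKM in the Ad_Chrebpa_HFLMCD livers, against 331, 333, 319.5 and 338 FPKM in the Ad_GFP_HFLMCD livers, again without overlap (-0.21 ± 0.06 (SE), edgeR adjusted p 0.0717). DESeq2 called both lower, in a fit that called 14.2% of all genes, and so did limma on log2(FPKM + 1), where 10.3% were called. Cfi averaged 286 ± 12.0 FPKM in Ad_Chrebpa_HFLMCD livers and 283 ± 14.0 FPKM in Ad_GFP_HFLMCD livers (0.09 ± 0.07 (SE)). Neither Cfi nor Vtn passed the test. Vtn averaged 1047 ± 20.8 FPKM in Ad_Chrebpa_HFLMCD livers and 1033 ± 44.2 FPKM in Ad_GFP_HFLMCD livers (0.09 ± 0.07 (SE)). Cd55 averaged 5.18 ± 1.20 FPKM in Ad_Chrebpa_HFLMCD livers and 5.97 ± 2.27 FPKM in Ad_GFP_HFLMCD livers (-0.13 ± 0.23 (SE)), with a sign that turned without liver 10. Cd59a and Cr1l act on the cell surface, like Cd55. Cd59a averaged 30.5 ± 3.53 FPKM in Ad_Chrebpa_HFLMCD livers and 29.9 ± 1.51 FPKM in Ad_GFP_HFLMCD livers (0.10 ± 0.09 (SE)). Cr1l averaged 28.9 ± 0.809 FPKM in Ad_Chrebpa_HFLMCD livers and 30.8 ± 0.821 FPKM in Ad_GFP_HFLMCD livers (-0.02 ± 0.05 (SE)).

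The receptors of the anaphylatoxins C3a and C5a, carried mainly by myeloid cells, were at low levels. C3ar1 averaged 0.965 ± 0.562 FPKM in LKO_NASH livers and 0.605 ± 0.222 FPKM in WT_NASH livers (0.51 ± 0.39 (SE), edgeR adjusted p 0.53). C5ar1 averaged 0.71 ± 0.338 FPKM in LKO_NASH livers and 0.333 ± 0.22 FPKM in WT_NASH livers (0.93 ± 0.53 (SE), edgeR adjusted p 0.432). Both had positive fold changes, as did 17 of 18 macrophage markers, and the part of macrophage content in these values was not tested. In the overexpression experiment C3ar1 averaged 8.99 ± 1.13 FPKM in Ad_Chrebpa_HFLMCD livers and 9.11 ± 1.86 FPKM in Ad_GFP_HFLMCD livers (0.06 ± 0.13 (SE)), with a sign that turned on the FPKM scales. C5ar1 averaged 5.76 ± 0.428 FPKM in Ad_Chrebpa_HFLMCD livers and 6.99 ± 0.957 FPKM in Ad_GFP_HFLMCD livers (-0.21 ± 0.09 (SE), edgeR adjusted p 0.169), and all Ad_Chrebpa_HFLMCD livers were below all Ad_GFP_HFLMCD livers.

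Besides the members, 23 further complement genes were examined. In the deletion experiment 0 of 17 tested were called, with 3 higher and 3 lower at an unadjusted edgeR p below 0.05. Itgax and Itgb2, chains of complement receptor 4, and Cpn2, a subunit of the carboxypeptidase that inactivates anaphylatoxins, had the lowest unadjusted p, with log2 fold changes of 1.54, 0.99 and -0.49. In the overexpression experiment 3 of 18 rose by edgeR, among them Serping1 and Itgax, where 8.13% of all genes were called and 4.95% called higher. On each FPKM scale limma called 0 of them higher and 1 lower, and with all 16 libraries in one edgeR fit 0 were called. Serping1, the C1 inhibitor, averaged 581 ± 63.8 FPKM in Ad_Chrebpa_HFLMCD livers and 491 ± 22.3 FPKM in Ad_GFP_HFLMCD livers (0.31 ± 0.07 (SE), edgeR adjusted p 0.0333). Itgax averaged 16.4 ± 1.98 FPKM in Ad_Chrebpa_HFLMCD livers and 13.1 ± 1.97 FPKM in Ad_GFP_HFLMCD livers (0.40 ± 0.10 (SE), edgeR adjusted p 0.0454). The number called was between 0 and 2 in the fits that left out 1 liver.

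Fold changes of most acute-phase genes lay on the same side of 0 as those of the terminal pathway in each experiment. In LKO_NASH livers 21 of 23 acute-phase genes had a negative fold change, with a median of -0.81 on the log2 scale, 6 at an unadjusted edgeR p below 0.05 and none called. Their summed level was 25079, 11588, 11516 and 11063 FPKM in the LKO_NASH livers, against 33547, 19497, 18336 and 19025 FPKM in the WT_NASH livers, with liver 21 inside the WT_NASH range. The lowest unadjusted p in the list belonged to Itih3, Saa4 and Steap4, at -1.07, -1.04 and -1.09. In Ad_Chrebpa_HFLMCD livers 21 of 23 had a positive fold change, with a median of 0.27, and 9 rose and none fell. Among those 9, Lbp, which binds lipopolysaccharide, was at 0.80 on the log2 scale (edgeR adjusted p 0.00129), Saa1, serum amyloid A, at 1.07 (0.00973) and Fgb, a fibrinogen chain, at 0.44 (0.0109). Most hepatocyte markers lay on these same sides of 0. In the deletion experiment 12 of 14 had a negative fold change, with a median of -0.09 and 0 called. In the overexpression experiment 13 of 14 had a positive one, with a median of 0.16, and 1, Apoa1, rose. The part of the acute-phase level in the complement values was not tested.

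IL-6 and IL-1 signalling genes had a median of -0.05 in the deletion experiment and 0.18 in the overexpression experiment, where 1, the NF-κB inhibitor Nfkbia, rose (0.33, edgeR adjusted p 0.0303). In the deletion experiment 7 of 15 tested had a positive and 8 a negative fold change, none called. At an unadjusted edgeR p below 0.05, 5 were higher and 2 lower, where 7.7% of all genes were higher and 5.88% lower. Il1rn and Cebpb had the lowest unadjusted p of the list, at 0.95 and 0.53. The 2 lower genes were Stat3 and Socs3, at -0.76 and -1.08. Of other cell types, 4 of 7 cholangiocyte markers fell in the overexpression experiment, among them Krt19 (-1.22, edgeR adjusted p 0.00799), Epcam (-0.90, 0.0225) and Sox9 (-0.57, 0.0465). The summed cholangiocyte level was 101.7 to 151 FPKM in Ad_Chrebpa_HFLMCD livers and 125 to 294 FPKM in Ad_GFP_HFLMCD livers. Most of that sum was Spp1, at 104 ± 20.8 FPKM in Ad_Chrebpa_HFLMCD livers and 181 ± 68.3 FPKM in Ad_GFP_HFLMCD livers. Spp1 was not called (edgeR adjusted p 0.0803). Krt19, Epcam and Sox9 averaged at most 3.14 FPKM in either group. Of 6 B and plasma cell markers 2 rose, among them Jchain (2.09, edgeR adjusted p 0.00217). The part of these cells in the complement values was not tested.

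Levels of some members stood far apart between the 2 experiments, whose diet, virus and genotype all differ. Summed C1q was 151 ± 44.9 FPKM in LKO_NASH livers and 88.3 ± 26.4 in WT_NASH livers, beside 395 ± 59 FPKM in Ad_Chrebpa_HFLMCD livers and 527 ± 123 in Ad_GFP_HFLMCD livers. The anaphylatoxin receptors together were at 1.68 ± 0.886 FPKM in LKO_NASH livers and 0.938 ± 0.392 in WT_NASH livers, beside 14.8 ± 1.55 in Ad_Chrebpa_HFLMCD livers and 16.1 ± 2.73 in Ad_GFP_HFLMCD livers. C4a stood the other way, at 11.1 ± 2.22 FPKM in LKO_NASH livers and 20.0 ± 6.62 in WT_NASH livers, beside 1.63 ± 0.742 in Ad_Chrebpa_HFLMCD livers and 0.682 ± 0.0665 in Ad_GFP_HFLMCD livers. The effects of diet, its duration, virus, genotype and possibly age, sex and strain on these levels cannot be told apart.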

How the data were processed

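RNA of 16 livers was sequenced, and 1 table per liver was deposited. Each holds an expected count, an FPKM value and a transcript length per gene, per the file headers. The authors aligned reads with HISAT2, per the submitters' processing notes. The counting program, genome build, annotation and strand setting were not given in the sources used here. The deposited expected counts are estimates of fragments per gene and need not be whole. The deposited FPKM values are scaled by length and library size. The length column of the deposited tables is in bases.

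Expected counts were rounded and tested with edgeR 4.0.16 (filterByExpr, TMM, quasi-likelihood F test, two-sided) in R 4.3.3. Each experiment had its own fit, and a fit of all 16 libraries tested the difference between the fold changes. P-values were Benjamini-Hochberg adjusted over all genes tested. Alternatives were DESeq2 1.42.0, limma 3.58.1 (voom, and log2(FPKM + 1) or log2(FPKM + 0.1) for genes averaging 0.1 FPKM or more, or with no filter), DESeq2 size factors, other filters (none, or a mean FPKM of 1 or more), a 1.5-fold minimum, all 16 libraries in 1 fit, transcript-named entries kept apart, and fits without 1 liver. The edgeR step was tested on simulated counts with known fold changes. These held no deviating liver, unlike the deletion experiment, and the outcome is not given here. Values are mean ± SD over 4 livers unless given as SE. No label states that the livers of a group came from separate animals, so p-values cover only the spread between these libraries, which may be technical. Replicate pairs differed by more than sampling noise (chi-square per degree of freedom of at least 17.2). The tables hold 17436 entries; 26 named by transcript were joined to their gene, giving 17410 genes. Libraries held 21254900 to 40327300 expected counts. Figures were drawn with matplotlib 3.10.9 in Python 3.11.15.

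The members and lists were chosen with earlier results of these data known. All members are named. Values of every liver are given for called members, for those with the lowest unadjusted p up to 8 in a comparison, for the C1q chains, C3 and C4b; further complement genes are named if called or among the 3 lowest p, except 1 that is not reported here, and other lists by at most 3 genes with the lowest p averaging 1 FPKM or more. Of the members, 25 of 33 had a promoter window in RefSeq (GRCm38.p6). The spans of Fcna, Hc, Cfi and Cd55 overlap those of noncoding genes, Cr1l overlaps Cd46 and Masp2 overlaps Tardbp, so their counts may include reads of the partner. Reads of near-identical copies (C4a and C4b, C1ra and C1rb, Cd59a and Cd59b) may have been split with error.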

Additional observations from a re-analysis of the deposited data

Results flagged for a closer look

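In each group of 4 livers, 1 liver was compared with the other 3 by Dixon's ratio at the 95% level. Of 132 such tests 10 passed, where chance flags about 1 in 20, or 6.6. In WT_NASH, liver 17 was high for C3 at 2016 FPKM (others 1227 to 1242), for Hc at 257 FPKM (others 176 to 188) and for Vtn at 1408 FPKM (others 1184 to 1210.4). Also in WT_NASH, liver 18 was high for C7 at 0.5 FPKM (others 0.31 to 0.34), and liver 19 was low for C8b at 115 FPKM (others 146 to 149.6). In LKO_NASH, liver 23 was low for Vtn at 943 FPKM (others 1106 to 1113). In Ad_Chrebpa_HFLMCD, liver 13 was low for C1qb at 117 FPKM (others 153 to 159.9) and liver 15 high for Cd55 at 6.96 FPKM (others 4.39 to 4.75). In Ad_GFP_HFLMCD, liver 10 was high for C1qa at 228 FPKM (others 146 to 158) and for C1qc at 225 FPKM (others 139 to 144).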

How the results depend on the processing

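No paired analysis was possible because the groups share no replicate number. In the deletion experiment 0 members were called; the count was 2, both lower, by DESeq2 and with all 16 libraries in 1 fit, and 0 to 1 without 1 liver (1 without liver 21). In the overexpression experiment 4 were called; the count was 8 by DESeq2 (6 higher, 2 lower), 2 with a 1.5-fold minimum, on log2(FPKM + 1) with no filter and with all 16 libraries, and 1 to 6 without 1 liver, with 2 without liver 9, 12 or 15 and 1 without liver 11. The 3 further complement genes called there became 5 by DESeq2, 0 with a 1.5-fold minimum and with all 16 libraries, 1, lower, on each FPKM scale, and 0 to 2 without 1 liver, with 1 without liver 9 or 10 and 0 without liver 11, 12, 15 or 16. For the difference between the fold changes 4 members were called, against 2 with DESeq2 size factors, no count filter, a mean FPKM minimum of 1, log2(FPKM + 1) or log2(FPKM + 0.1), 1 on log2(FPKM + 1) with no filter, 14 by DESeq2 (1 higher, 13 lower; 7.19% of all genes), and 1 to 14 without 1 liver: 14 without liver 21 (12.1% of all genes), 9 without liver 19 (5.5%), 5 without liver 20 (2.14%) or 23 (2.16%) and 1 in each of the other fits. The cause was not tested.

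No value that changed sign was called by edgeR in its own experiment. On log2(FPKM + 1), with or without the filter, and on log2(FPKM + 0.1), the deletion experiment had C8g at 0.0965 and 0.097 and Cr1l at 0.0546 and 0.0571, and the overexpression experiment Mbl2 at -0.0245 and -0.0247, Fcna at -0.0593 and -0.063, C8b at -0.0526 and -0.053 and C3ar1 at -0.0052 and -0.0044. C9 in the overexpression experiment stood at 0.0001 with DESeq2 size factors, 0.0001 by DESeq2 and 0.0121 with all 16 libraries. Without 1 liver, the deletion experiment ranged for Mbl2 from -0.0216 to 0.176, Masp2 from -0.0819 to 0.1532 and C8g from -0.1337 to 0.0168. The overexpression experiment ranged for Mbl2 from -0.0151 to 0.1189, Fcna from -0.1466 to 0.2229, C8b from -0.0358 to 0.0819, C9 from -0.0485 to 0.0449, Cd55 from -0.2876 to 0.144 and C3ar1 from -0.0533 to 0.1568. Counting precision limits the members with the lowest levels, Cfd, C7, C3ar1 and C5ar1.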

Other observations

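Markers of the remaining cell types were examined beside the complement genes. Sinusoidal endothelium markers had a positive fold change in 9 of 10 in LKO_NASH livers, with a median of 0.36 on the log2 scale and none called, and a median of 0.05 in Ad_Chrebpa_HFLMCD livers. Stellate cell markers had a median of 0.06 in LKO_NASH livers and -0.08 in Ad_Chrebpa_HFLMCD livers, with none called. The collagen genes Col1a1 and Col3a1 stood at 1.08 and 1.01 in LKO_NASH livers, at edgeR adjusted p of 0.343 and 0.339. T and NK cell markers were low, at a summed 2.58 to 3.58 FPKM in LKO_NASH livers and 1.59 to 2.05 FPKM in WT_NASH livers, and 6.4 to 21.6 FPKM in Ad_Chrebpa_HFLMCD livers and 7.47 to 17.0 FPKM in Ad_GFP_HFLMCD livers. Neutrophil markers summed to 3.63 to 7.26 FPKM in LKO_NASH livers and 3.56 to 8.06 FPKM in WT_NASH livers, and to 27.5 to 37.5 FPKM in Ad_Chrebpa_HFLMCD livers and 24.6 to 53.0 FPKM in Ad_GFP_HFLMCD livers. Neither list had a called gene. Erythroid markers summed to 2904 to 5575 FPKM in LKO_NASH livers and 1755 to 4046 FPKM in WT_NASH livers, and to 408 to 1052 FPKM in Ad_Chrebpa_HFLMCD livers and 708 to 1131 FPKM in Ad_GFP_HFLMCD livers. In the overexpression experiment 2 erythroid genes were called higher and 1 lower by edgeR: Hba-a2 at 6.06 on the log2 scale (adjusted p 3.66e-05), Alas2 at 0.29 (0.0194) and Hba-a1 at -0.94 (0.0474). Hba-a1 and Hba-a2 are near-identical copies whose reads may have been split with error. Hba-a2 had 102, 218, 124 and 73.4 FPKM in the Ad_Chrebpa_HFLMCD livers, against 2.48, 1.80, 1.93 and 1.90 FPKM in the Ad_GFP_HFLMCD livers. Hba-a1 was at 176 to 458 FPKM in the former and 461 to 732 FPKM in the latter. In LKO_NASH and WT_NASH livers Hba-a2 was at 358 to 1101 FPKM. Whether the mice of both HFLMCD groups shared a genetic background was not tested, and it could not be told apart from the overexpression. Of the adipocyte markers only Fabp4 had enough counts to be tested, at 0.42 in LKO_NASH livers and -0.10 in Ad_Chrebpa_HFLMCD livers, not called.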
